A study of Mus musculus with 7 samples.

Results

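The genes described here belong to the guidance families: semaphorins, plexins, neuropilins, ephrins, Eph receptors, Slit ligands, Robo receptors, netrins, Dcc, Neo1 and the Unc5 genes. They were chosen by gene symbol alone, with the Slitrk genes left out. By this rule 15 of the 3983 genes in the muscle m6A table were taken, with 19 of its 5412 peaks, and 26 of the 3970 genes in the C2C12 list, with 33 of its 5433 peaks. In all, 32 guidance genes had a peak in at least 1 table and 9 in both.

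The series used m6A MeRIP-Seq, a method that pulls RNA fragments carrying N6-methyladenosine (m6A) out with an antibody (IP) and sequences them next to the unselected RNA (input). Muscle of C57BL/6 mice was taken at day 2 after injection of cardiotoxin (CTX), which kills muscle fibers and starts regeneration, and before this the mice had received tamoxifen for 5 days. The METTL3 conditional knockout (cKO) mice were Pax7CreERT2; METTL3 flox/flox and the control (CTL) mice Pax7CreERT2; METTL3 wt/wt, with 1 IP library and 1 input library from each genotype. The Cre is driven from Pax7, so the deletion of METTL3, the m6A methyltransferase, is targeted to muscle stem cells and passes to the cells that arise from them. Cells of other lineages in the tissue are not targeted. The labels give the cell type as muscle stem cell but the source as muscle, and they give no age and no number of animals. C2C12, a mouse myoblast line, has 2 IP libraries and 1 input library. The labels call the genotype of both C2C12 IP libraries a knockout and that of the input normal, whereas the methods name no knockout for this experiment, and they do not say whether the cells had been differentiated. The libraries are therefore called C2C12 only.

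Guidance ligands are secreted or membrane-bound proteins that steer cells and growing axons or vessels. Semaphorins act through plexins, and most of the secreted class use neuropilins as partners, with Sema3e, which binds Plxnd1 directly, as an exception. Ephrins are anchored to the membrane and bind Eph receptor tyrosine kinases on a neighbouring cell, with signals in both directions. Slits act through Robo receptors, and netrins through Dcc, its relative neogenin (Neo1) and the Unc5 receptors. In skeletal muscle these families are known from motor axon guidance, from blood vessel growth, and from the movement and fusion of myoblasts.

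Each muscle peak carries a single set of values for the 4 libraries together. The fold enrichment is the authors' ratio of IP over input for a peak, and no value per genotype was available for a comparison of METTL3 cKO with CTL. For each of the 5412 peaks the authors' own test between the genotypes has a listed FDR of at most 0.05 after rounding, so a gene outside it may still carry m6A. The direction of that test is not given here. Neither table holds read counts, so the depth of the libraries is unknown, and an expression level cannot be read from either. In bulk muscle, fewer cells of a type and less RNA per cell cannot be told apart.

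Markers of cell types were looked up in both tables, where 16.9% (muscle) and 17.5% (C2C12) of all protein-coding genes were listed. A peak was listed in muscle for 4 of 7 muscle stem cell and myoblast markers (Pax7, Myod1, Myog and Des), with none for Myf5, Vcam1 or Cdh15. Of the markers of other cells that injured muscle holds, a peak was listed for 1 of 4 of macrophages (Ptprc), 1 of 3 of endothelium (Cdh5), 2 of 3 of fibroblasts (Pdgfra and Col1a1) and 0 of 3 of Schwann cells. In C2C12 a peak was listed for 4 of the 7 myoblast markers (Pax7, Myod1, Des and Cdh15), 2 of the 3 of fibroblasts (Pdgfra and Col1a1) and none of the macrophage, endothelial or Schwann cell markers. The highest fold enrichment in muscle was 39 for Pax7, 13.5 for Myod1, 6.82 for Myog and 2.12 for Des. It was 3.28 for Ptprc, 155 for Cdh5, 49.7 for Pdgfra and 3.52 for Col1a1, against a median of 12.9 over all peaks. A listed peak is no measure of how many cells of a type were present, and the part of other cells in the values below was not tested.

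The number of listed guidance genes was set beside the share of all protein-coding genes listed. The annotation holds 74 protein-coding genes that meet the rule, and 15 of them (20.3%, 95% Wilson interval 12.7 to 30.8, covering counting error only) were in the muscle table, where 16.9% of all protein-coding genes were listed. In C2C12 26 of the 74 (35.1%, interval 25.2 to 46.5) were listed, against 17.5% of all protein-coding genes. The guidance genes are long, with a median span of 57121 bp against 17149 bp for all protein-coding genes, and genes listed in a table were also longer, with medians of 28976 bp in muscle and 22506 bp in C2C12. Within the guidance genes, however, the 42 listed in neither table had a median of 73225.5 bp and the 32 listed in either one of 45154.5 bp. The part of gene length in these shares was not tested.

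**Figure D1:**
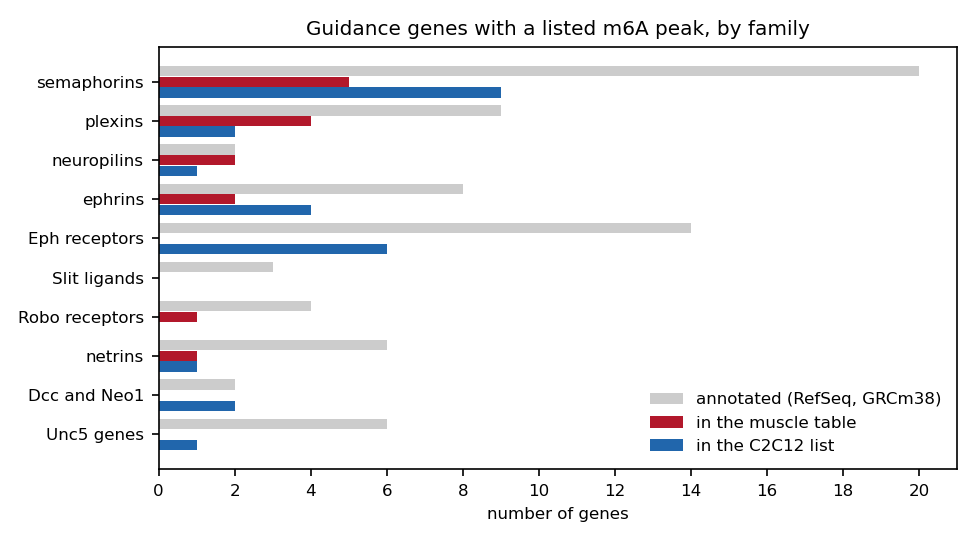
Number of guidance genes by family: those annotated as protein-coding in RefSeq (GRCm38), those with a peak in the muscle table and those with a peak in the C2C12 list. The 14 Eph receptors have no bar for muscle and one of 6 for C2C12, and the 3 Slit ligands have a bar in neither.

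Among the ligands, 5 of 20 semaphorins and 2 of 8 ephrins were listed in muscle, and 9 semaphorins and 4 ephrins in C2C12. The semaphorins in muscle were Sema3g, Sema4c, Sema6a, Sema6d and Sema7a. All of these apart from Sema3g were listed in C2C12 too, where Sema3a, Sema3b, Sema3d, Sema3e and Sema4b stood beside them. The secreted class, Sema3, thus had 1 of 7 genes in muscle and 4 of 7 in C2C12, against 16.9% and 17.5% of all protein-coding genes. No Sema3 gene was shared, but with 1 gene in muscle no share can be read. Of all protein-coding genes listed in muscle, 42.7% were also in C2C12. Both ephrins in muscle, Efnb1 and Efnb2, span the membrane, whereas C2C12 also had Efna1 and Efna4 of the class held by a lipid anchor. None of Slit1, Slit2 and Slit3 was listed. Of the 6 netrin genes, Ntn4 was listed in muscle and Ntn1 in C2C12.

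Among the receptors, 4 of 9 plexins were listed in muscle (Plxna1, Plxna2, Plxnb2 and Plxnd1) and 2 in C2C12 (Plxna1 and Plxnb2). Both neuropilins were in the muscle table and Nrp2 alone in the C2C12 list. Of the Eph receptors, 0 of 14 were listed in muscle and 6 in C2C12 (Epha2, Epha4, Ephb2, Ephb3, Ephb4 and Ephb6). The Wilson interval in muscle reached 21.5% and so includes the 16.9% of all protein-coding genes. In C2C12 the interval was 21.4 to 67.4%, against 17.5% of all. Robo4 was the single Robo receptor, listed in muscle. Dcc, Neo1 and Unc5b were listed in C2C12 and none of them in muscle. The symbol rule also takes in Unc50 and Unc5cl, which are not netrin receptors. The 42 genes listed in neither table included 10 semaphorins (Sema3c, Sema3f, Sema4a, Sema4d, Sema4f, Sema4g, Sema5a, Sema5b, Sema6b and Sema6c) and 5 plexins (Plxna3, Plxna4, Plxnb1, Plxnb3 and Plxnc1). They also included 4 ephrins (Efna2, Efna3, Efna5 and Efnb3) and 8 Eph receptors (Epha1, Epha3, Epha5, Epha6, Epha7, Epha8, Epha10 and Ephb1). The others were the Slit ligands, Robo1, Robo2, Robo3, Ntn3, Ntn5, Ntng1, Ntng2, Unc5a, Unc5c, Unc5d, Unc50 and Unc5cl. The tables were made separately, and the differences between them were not tested.

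In muscle, the peaks of the guidance genes had fold enrichments from 7.15 to 810, with a median of 87.1 (95% binomial interval of the median 30.6 to 168, n = 19 peaks). The median over all 5412 peaks was 12.9. A fold enrichment of at least 10 was reached by 17 of the 19 peaks, against 56.6% of all peaks. The peaks of the guidance genes were also longer, with a median of 779 bp of exon against 360 bp. Among peaks of at least 500 bp, a limit chosen after seeing the data, the median was 112.5 for the 14 peaks of guidance genes. Its 95% interval, 33.5 to 228, includes the median of all 2071 such peaks, 68.7. Of those 2071 peaks, 91.4% reached 10. The gap in medians was thus smaller among long peaks. These are descriptions of a list of 19 peaks with no replicate, and no test was made.

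**Figure D2:**
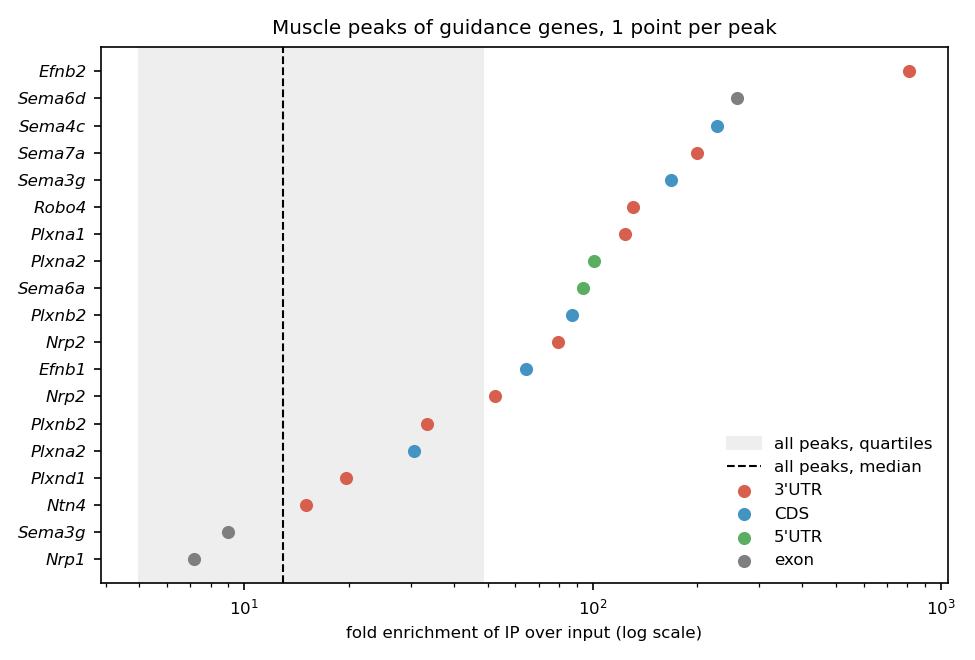
Fold enrichment of IP over input (log scale) for each of the 19 muscle peaks of guidance genes, coloured by the authors' annotation, with the median (dashed) and quartiles (grey band) of all 5412 peaks. The peaks run from Nrp1 at 7.15 to Efnb2 at 810, and 2 of them lie left of the dashed line at 12.9.

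By annotation, 9 of the 19 peaks lay in the 3′UTR, 5 in the coding sequence (CDS), 2 in the 5′UTR and 3 in exons that the table assigns to none of these. The 3′UTR share was 47.4% (95% Wilson interval 27.3 to 68.3) and that of all peaks 48.0%. The 3′UTR peaks of guidance genes had a median fold enrichment of 79.3, against 9.94 for all 3′UTR peaks, and the CDS peaks one of 87.1 against 26.6. The peaks of guidance genes were also longer in both classes. Their median lengths were 781 bp against 301 bp (3′UTR) and 988 bp against 600 bp (CDS). The part of length in these differences was not tested. The peaks in unassigned exons were Nrp1 at 7.15, the shorter Sema3g peak at 9 and Sema6d at 260, around a median of 12.7 for all peaks of that class. No peak of another gene in the table overlapped any of the 19.

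Efnb2, a ligand of EphB receptors that is known from arterial endothelium, had the strongest peak of the guidance genes. Its 3′UTR peak on chromosome 8 (8619798 to 8620966, GRCm38, minus strand) stood at rank 43 of the 5412, with a fold enrichment of 810. The other ephrin, Efnb1 on the X chromosome, had a peak over 2 exon blocks annotated to the CDS (99146761 to 99148247) with a fold enrichment of 64.2, at rank 1164. Both lay above the third quartile of all peaks, 48.3.

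The semaphorins came next. Sema6d, a transmembrane ligand of Plxna1, had a single peak of 2100 bp on chromosome 2 (124664051 to 124666150) with a fold enrichment of 260. It is the longest peak of the guidance genes and its centre lies 2688 bp before the annotated end of the gene. Sema4c, a ligand of Plxnb2 known from myoblast differentiation, had a CDS peak on chromosome 1 (36549146 to 36550368) with a fold enrichment of 228. Sema7a, which is anchored by a lipid and binds integrins and Plxnc1, had a 3′UTR peak on chromosome 9 (57961396 to 57962176) at 200. The 5′UTR peak of Sema6a had a fold enrichment of 93.9 and lay 2734 bp from the annotated start of the gene.

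Sema3g, a secreted semaphorin made by endothelium, had a pair of peaks of very different strength on chromosome 14. The CDS peak (31227784 to 31228411) had a fold enrichment of 168. The second, 210 bp long (31228710 to 31228919), had 9 and the highest p-value of the 19 peaks in the authors' table, 0.0014. It is the shortest of the peaks and the weakest after that of Nrp1.

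The peaks of the semaphorin receptors ran from 7.15 to 124, against 9 to 260 for the semaphorins. In Plxna1 the peak covered 1380 bp of 3′UTR on chromosome 6 (89318083 to 89319462), with a fold enrichment of 124. Plxna2 had a 5′UTR peak on chromosome 1 (194619806 to 194620556) at 101 and a CDS peak (194643733 to 194644453) at 30.6. Plxnb2 had a CDS peak on chromosome 15 (89166741 to 89167902) at 87.1 and a 3′UTR peak (89155549 to 89156327) at 33.5. In both genes the peak nearer the 5′ end was the stronger. Plxnd1, the endothelial receptor of Sema3e, had the weakest plexin peak, in the 3′UTR on chromosome 6 (115954901 to 115956156), at 19.6.

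The neuropilins, which pair with plexins to receive most secreted semaphorins, differed in place and strength. Nrp2 had 3′UTR peaks on chromosome 1 at 79.3 (62815338 to 62816087) and 52.5 (62816866 to 62817226). In Nrp2 and Sema3g too, as in Plxna2 and Plxnb2, the peak nearer the 5′ end was the stronger. It was also the longer in each of these genes, and in all but Nrp2 the peaks differed in annotation class. The order was not counted over all genes with more than a single peak, so it has no background beside it. The part of length and class in it was not tested. Nrp1 had 1 peak on chromosome 8 (128359217 to 128359546) at 7.15, the lowest of the guidance genes. Its centre lies 790 bp from the annotated start of the gene, and the microRNA gene Mir1903 overlaps it in the annotation, so reads there cannot be given to Nrp1 alone.

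Robo4, the Robo receptor of endothelium, had a 3′UTR peak on chromosome 9 (37413177 to 37414127) with a fold enrichment of 131. Ntn4, a netrin that binds laminins in basement membranes, was listed through 270 bp of 3′UTR on chromosome 10 (93746609 to 93746878) at 15, close to the median of all peaks. The Ntn4 peak lies beyond the RefSeq end of the gene and the Robo4 peak is not wholly inside its RefSeq span. The other 17 peaks lie inside the span of their gene. Grouped by role, the 9 peaks of ligands had a median of 168 (range 9 to 810) and the 10 peaks of receptors one of 65.9 (range 7.15 to 131), with ranges that overlap.

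The letters GGAC are the core of the sequence that the m6A methyltransferase recognises, and the table lists the position of each GGAC in a peak. At least 1 site was listed in 18 of the 19 peaks (94.7%, 95% Wilson interval 75.4 to 99.1), against 70.6% of all peaks. The exception was Ntn4. The 19 peaks held 101 sites, or 6.31 per kb of exon, against 4.63 per kb over all peaks. Long peaks have more room for a site, and among peaks of at least 500 bp all 14 of guidance genes held one, as did 94.9% of all. The density in those was 6.65 against 4.92 per kb.

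**Figure D3:**
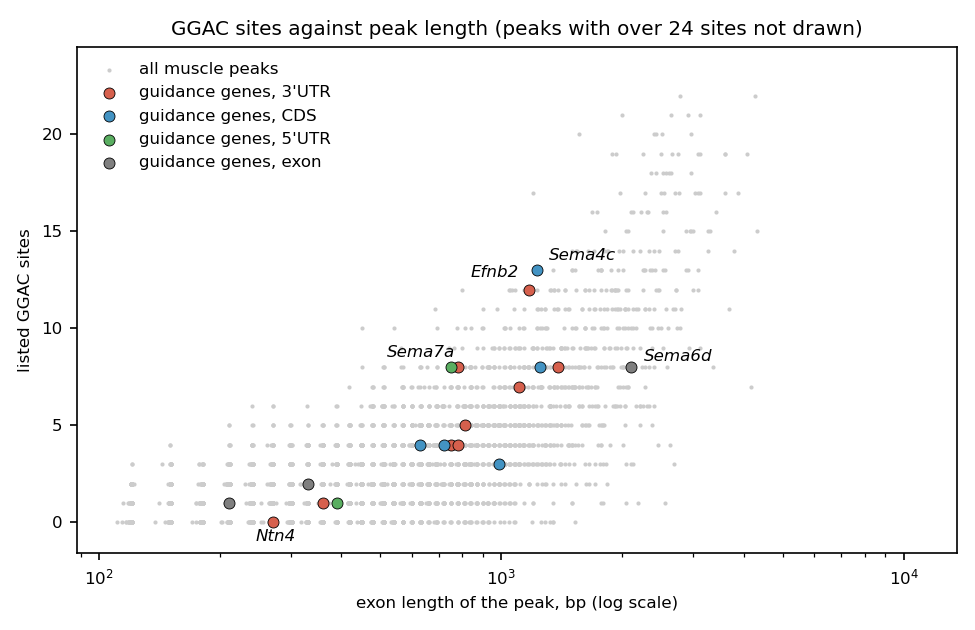
Number of listed GGAC sites against the exon length of a peak (log scale) for all muscle peaks (grey) and for the 19 peaks of guidance genes (coloured by annotation). Sema4c with 13 sites and Efnb2 with 12 stand highest among the coloured points, and the 14 peaks with over 24 sites are not drawn.

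Sema4c held the most sites, 13 in 1223 bp, a number that 118 of the 5412 peaks reached. Efnb2 followed with 12 in 1169 bp, which 158 peaks reached. Each of Efnb1, Plxna1, Sema6d, Sema7a and the 5′UTR peak of Plxna2 held 8 sites, which 448 peaks reached. Per kb, however, these differ. Plxna2 (5′UTR) had 10.7 sites, Sema4c 10.6, Efnb2 10.3 and Sema7a 10.2, whereas Efnb1 had 6.4, Plxna1 5.8 and Sema6d 3.81. Density and strength did not go together in each gene, since Sema6d had the second highest fold enrichment and the fourth lowest density among peaks with a site.

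**Figure D4:**
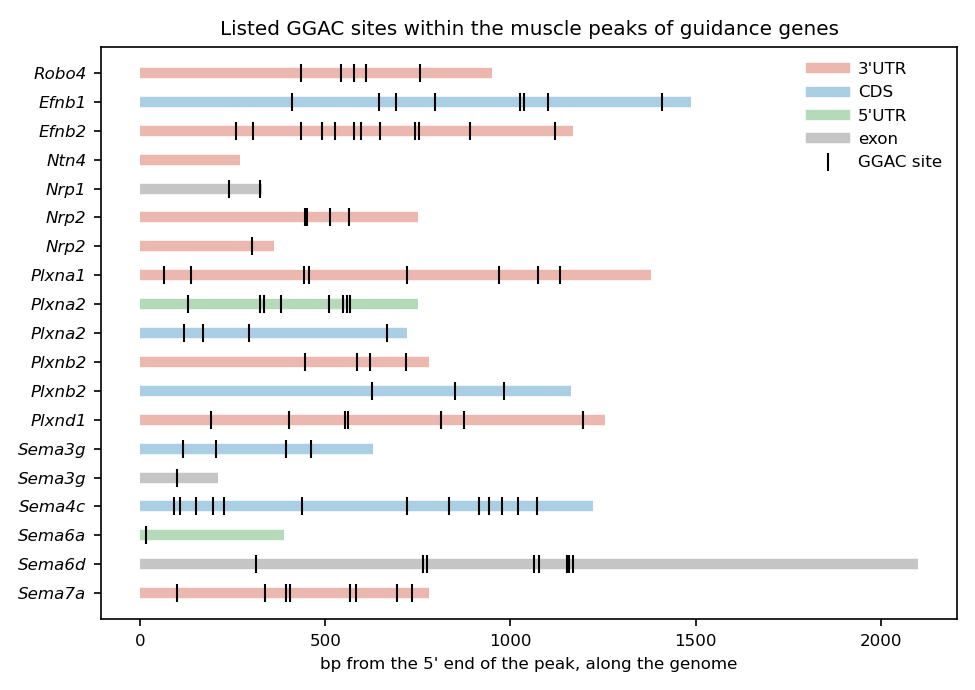
Position of the listed GGAC sites (ticks) in each muscle peak of a guidance gene, in bp from the 5′ end of the peak along the genome, with bars coloured by annotation. For Efnb1, Robo4, Plxnd1 and the CDS peak of Plxnb2 the bar includes an intron, and the bar of Ntn4 has no tick.

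Distances between neighbouring sites were counted within single-block peaks. Of 64 pairs of neighbouring sites in guidance genes, 14 (21.9%) were within 20 bp of each other, against 12.7% of 7020 pairs in all peaks. By class this was 1 of 18 pairs in the CDS (all CDS peaks, 11.4%) and 6 of 31 in the 3′UTR (13.9%). It was 3 of 7 in the 5′UTR (22.4%) and 4 of 8 in unassigned exons (11.8%). The guidance gene peaks also held more sites per kb, 6.31 against 4.63, and the part of this in the share of close pairs was not tested. The closest pairs were 5 bp apart, in Nrp2 (listed at 62815784 and 62815789) and in Sema6d (124665204 and 124665209). In the 5′UTR of Plxna2 the last 3 sites (194620355, 194620366 and 194620374) fell within 20 bp. In Sema4c, 5 sites lay in the first 227 bp of the peak and 7 between 720 and 1072 bp, with 1 between them at 437 bp. In Efnb2 the sites ran from 259 to 1120 bp, with no gap wider than 228 bp. Sites within 1 peak share its reads, so which of them is methylated cannot be read from the table.

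In C2C12 the list gives the place of a peak and no strength, so only number, length and annotation can be described. Of the 33 peaks, 13 were in the 3′UTR, 11 in coding exons, 5 in the 5′UTR and 4 in introns. The coding share was 33.3% (95% Wilson interval 19.8 to 50.4), against 52.6% of all peaks, and the 3′UTR share 39.4% (interval 24.7 to 56.3) against 25.9%. The median length was 351 bp against 286 bp. A second peak was present in 6 of the 26 genes (23.1%), against 25.8% of all genes. In muscle, 4 of the 15 genes had a second peak (26.7%), as did 996 of all 3980 gene symbols.

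Efnb2 had the most peaks of the guidance genes in C2C12, with 205 bp in the 5′UTR at 108 bp from the transcription start site (TSS), 244 bp in an intron and 611 bp in the 3′UTR at 40187 bp. Efnb1 had 1 peak of 487 bp in the 5′UTR, 195 bp from the TSS. Efna1 and Efna4 had 1 peak each, in the 3′UTR, of 350 and 351 bp.

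The Eph receptors had 7 peaks in C2C12. Epha2 had a peak of 297 bp in a coding exon and one of 488 bp in the 3′UTR. Ephb2 had the longest, 734 bp in the 3′UTR, and Epha4 and Ephb4, the receptor best known as a partner of ephrin-B2, had 3′UTR peaks of 211 and 300 bp. Ephb3 had a 5′UTR peak of 239 bp at 30 bp from the TSS, and Ephb6, which lacks kinase activity, a coding peak of 245 bp. The 4 receptors Ephb2, Ephb3, Ephb4 and Ephb6 belong to the B class, whose ligands Efnb1 and Efnb2 were listed in the same cells.

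Sema3a, a secreted repellent of axons that myoblasts are known to release, had a 3′UTR peak of 889 bp, the longest of the 33, and an intron peak of 202 bp. Sema3b, Sema3d and Sema3e had coding peaks of 457, 316 and 365 bp. Sema4b had a 3′UTR peak of 451 bp. Neo1, a netrin receptor known to act in myoblast fusion, had a 3′UTR peak of 450 bp, and its ligand Ntn1 a coding peak of 206 bp. Dcc and Unc5b were listed through intron peaks only, of 208 and 215 bp, and without intron peaks 24 genes would be left of the 26.

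The 9 genes listed in both tables were Efnb1, Efnb2, Nrp2, Plxna1, Plxnb2, Sema4c, Sema6a, Sema6d and Sema7a. They are 60.0% of the 15 muscle genes and 34.6% of the 26 C2C12 genes. Over all protein-coding genes, the 1584 shared genes were 42.7% of those in muscle and 41.4% of those in C2C12. Each of the 9 had a muscle peak with a fold enrichment of at least 10, from 64.2 for Efnb1 to 810 for Efnb2. Counted by gene, however, 14 of the 15 muscle guidance genes reached 10, against 65.5% of all genes listed in muscle. Reaching 10 thus hardly sets the shared genes apart from the other muscle guidance genes. The C2C12 positions are not on the build of the muscle positions, so the place of a peak was compared by annotation only.

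A peak in the same class was listed in both tables for 4 of the 9 genes. The same share over all shared genes was not computed, so 4 of 9 has no background beside it. All listed muscle peaks have a genotype FDR of at most 0.05, so a peak in the same class may be present but unlisted. Efnb2 and Sema7a had a 3′UTR peak in both, Sema4c a coding peak in both, and Plxnb2 a coding and a 3′UTR peak in both. The Plxnb2 peaks lay 11384 bp apart in muscle and 11225 bp apart in C2C12, a spacing that does not depend on the build. The other 5 differed in class. Nrp2 had 3′UTR peaks in muscle and 5′UTR peaks at 189 and 744 bp from the TSS in C2C12. Efnb1 had a CDS peak in muscle and a 5′UTR peak in C2C12. Plxna1 had a 3′UTR peak in muscle, Sema6a a 5′UTR peak, and both a coding peak in C2C12. Sema6d had an unassigned exon in muscle and a coding peak in C2C12. The C2C12 peaks of Nrp2 were 351 and 257 bp long, those of Plxna1 and Sema6a 588 and 482 bp, and that of Sema6d 200 bp, the shortest of the 33, although its muscle peak was the longest there. In the genes with a shared class the C2C12 lengths were 599 bp for Sema7a, 355 bp (coding) and 518 bp (3′UTR) for Plxnb2, and 418 bp (coding) for Sema4c, which had a second peak of 377 bp in the 3′UTR. The annotations were made separately for each table, and their part in these differences was not tested.

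The partners of the guidance receptors outside the rule were taken as a list of 50 genes that includes collapsin response mediators, exchange factors and kinases. In muscle 19 of the 50 (38.0%) were listed, against 16.9% of all protein-coding genes, and in C2C12 16 (32.0%), against 17.5%. The list was chosen with earlier results of these data known, so these shares only describe it. The part of gene length in them was not tested. There were 7 in both, namely Abl1, Abl2, Nck1, Tiam1, Trio, Rgmb and Flrt2. The 28 muscle peaks of the 19 genes had a median fold enrichment of 8.95, against 12.9 over all peaks, and 11 of them reached 10 (39.3%, 95% Wilson interval 23.6 to 57.6), against 56.6% of all peaks. A GGAC site was listed in 15 of the 28 (53.6%), against 70.6% of all peaks, and their median length was 255.5 bp, against 360 bp. The highest were Abl1, a tyrosine kinase downstream of Robo, at 438 in the 5′UTR, and Trio, an exchange factor downstream of Dcc, at 253 in the 3′UTR. Dpysl2, the collapsin response mediator through which Sema3a acts on microtubules, was listed at 2.03, below each peak of the guidance genes. The difference between this list and the guidance genes was not tested.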

How the data were processed

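m6A MeRIP-Seq libraries of muscle (4) and C2C12 (3) were grouped by their titles. The submitters' processing notes name TopHat, MACS2 and mm10, with versions not given in the sources used here. The authors deposited 1 peak table for muscle, several of whose column names are those of the exomePeak package, with the fold enrichment of each peak (a ratio of IP over input) and its p-value, listed as 0 for 929 peaks. For C2C12 they deposited positions and annotation only. The muscle table also holds the authors' own comparison of the genotypes as log2 folds with p-values and FDRs, of which only the FDR was read, to count the peaks it lists at or under 0.05 (all 5412). Columns of peak p-value and FDR logarithms, damaged by a spreadsheet, were not used either. No column belongs to a single sample. Depth is unknown.

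Starts were counted from 1. Genes were matched to RefSeq protein-coding genes (GRCm38.p6) by symbol in muscle, 3711 of 3980 symbols, and by transcript in C2C12, 3830 of 3970. Of muscle peaks 95.7% lay inside the span of their gene, against 9.34% of C2C12 peaks (12 of the 33 of guidance genes), so C2C12 positions are not given. Where a listed GGAC site fell in a RefSeq promoter window, the sequence held GGAC there, from 1 base before the listed position, at 150 of 167 sites. This was 90 of 92 on the plus strand and 60 of 75 on the minus strand, the strand of Sema4c, Efnb2 and Plxna1. No sequence of a guidance gene peak was used here.

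With 1 library of each kind per genotype and 1 value per peak, no test was made. Shares have 95% Wilson intervals, and the median one from binomial order statistics, both tested on simulated data. Python 3.11.15, pandas 2.3.3, numpy 2.4.6, scipy 1.17.1 and matplotlib 3.10.9 were used. Values were given by rule for the strongest peak of each family, the 5 highest and 3 lowest peaks, and genes with 2 or more peaks or in both tables. The other members are given beside them. The members and lists were chosen with earlier results of these data known.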

Additional observations from a re-analysis of the deposited data

How the results depend on the processing

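Of 21 alternatives run over 8 results, 18 left the value within its interval, or within 1.5 times for counts, and 4 of the 21 were added after seeing the data. The median fold enrichment of guidance gene peaks ran from 87.1 to 112.5, while that of all peaks ran from 12.9 to 68.7. A threshold of 5 was reached by 19 of 19 guidance gene peaks, 10 by 17 of 19 and 20 by 15 of 19. The shares of all peaks were 75.1%, 56.6% and 40.9%. With 1 peak per gene, 14 of 15 reached 10, against 65.5% of all. With peaks of at least 500 bp, 14 of 14 reached 10, against 91.4% of all. Restricting the peaks to at least 500 bp took the share with a GGAC site from 94.7% to 100.0%, since the peak without one is shorter. Asking for the same annotation class took the genes in both tables from 9 to 4, and asking for at least 2 peaks took the C2C12 genes from 26 to 6, both by construction. No paired analysis was possible because the tables hold no values per library. The counts behind each peak are unknown, so no error can be set on a single fold enrichment.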
